A study of Mus musculus with 18 samples.

Results

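The cytosolic ribosomal protein genes were described across 18 RNA-seq libraries of IMCD3 cells, a mouse cell line of the inner medullary collecting duct. The members were every gene named Rpl or Rps plus a number, together with Rplp0, Rplp1, Rplp2 and Rpsa, that reached 1 TPM, a transcript abundance corrected for length and library total, in 3 or more libraries. All 76 genes with such a name passed, among 16718 genes that passed the same minimum, and 46 of them belong to the large and 30 to the small ribosomal subunit. They lie on 19 chromosomes, with 4 on X.

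The libraries came from Dync2h1 knockout cells, Ift140 knockout cells and wild type cells, each kept for 3 h in microslide chambers either under fluid flow, at a shear stress of 0.7 dyne/cm2, or static, with 3 libraries in each of the 6 groups. Dync2h1 is the heavy chain of the motor that carries cargo back from the tip of the primary cilium. Ift140 is a subunit of a complex that takes part in this return transport. The study asked which transcripts depend on cilia and flow. All 3 genotypes carry the Tg(SV40E)bri/7 background, were used at passage 10 to 15 and gave total RNA. The labels do not say how many clones each knockout stands for, nor whether the libraries of a group come from separate cultures, so p-values measure only the spread between these libraries.

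Ribosomal proteins are made in nearly equal amounts, and their assembly with ribosomal RNA is one of the largest costs of a growing cell. Their messenger RNAs begin with a C and a run of pyrimidines, the terminal oligopyrimidine (TOP) motif, through which mTOR signalling and the LARP1 protein control their translation. The mouse genome also carries many processed pseudogenes of these genes, copied from spliced messenger RNA, whose sequence can be the same as that of the parent.

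Most ribosomal protein sequence in these files stood in rows other than the members' own. A sequence search found 530 rows that aligned to a member's transcript at 95% identity or more. The alignment had to span at least 100 bases and 50% of the row's length, and identity outside it was not required. By this rule 74 of the 76 members had a copy, called near-identical below. Of the 530 copies, 505 are annotated as processed pseudogenes, 14 as transcribed processed pseudogenes, 10 as protein-coding and 1 as a lincRNA. Averaged over the libraries, the copies held 54044 TPM in all, against 20652 TPM in the members' own rows. In 61 members the own row held under 50% of the sum, and 4 members, Rpl8 among them, held 90% or more. How the reads of one transcript were shared among identical rows was decided by the quantification, and reads from a pseudogene and from its parent cannot be told apart here.

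The coding sequences show how little there is to tell such rows apart. Rpl10 on X and Rpl10-ps1 on chromosome 2 have the same 645 coding bases, as do Rpl10a on chromosome 17 and Rpl10a-ps1 on chromosome 1 over 654 bases. Rpl37 on chromosome 15 and Rpl37rt on chromosome 5 differ at 1 of 294 coding bases, G249A counted from the A of the start codon in the direction from the member to the copy. Rpl30 on chromosome 15 and Gm12191 on chromosome 11 differ at 1 of 348 coding bases, G96A. The stretches around these bases, from GENCODE vM21 transcripts on GRCm38, are shown 5′ to 3′ because they are the only coding positions at which each pair differs; capitals mark the base that differs.
Rpl37: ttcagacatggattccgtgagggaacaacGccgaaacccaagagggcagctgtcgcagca
Rpl37rt: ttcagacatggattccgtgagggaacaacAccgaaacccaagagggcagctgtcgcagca
Rpl30: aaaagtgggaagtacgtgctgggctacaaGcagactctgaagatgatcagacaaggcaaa
Gm12191: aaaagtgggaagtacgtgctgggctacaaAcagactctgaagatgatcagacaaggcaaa

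Each member was therefore described at 2 levels, as its own row and as a family, meaning its own row plus all its near-identical copies. The families were defined after the members' own values had been seen. Levels are given as scaled TPM, the deposited TPM divided by a library-wide factor, and differences as log2 differences of scaled TPM plus 1. Tests were limma fits over all genes with Benjamini-Hochberg adjustment, a gene was called at an adjusted p under 0.05, and single values were described without a test, since an exact permutation test of 3 libraries against 3 cannot go below p = 0.1.

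Start sites were examined for the TOP motif. A run of 8 or more pyrimidines that begins with C, searched on the transcribed strand within 30 bases of the annotated start, was present in 31 of the 56 members matched in the RefSeq table (55.4%), against 5570 of all 27025 genes in it (20.6%). The run length and window were set after some of the members' windows had been looked at, so the comparison is a description. Below are 3 members with such a run and 2 without one inside the window. The 60-base windows have 30 bases on either side of the RefSeq start on GRCm38.p6, and capitals mark the longest C-led pyrimidine run.
Rps6 (chr4:86857338-86857397, minus strand): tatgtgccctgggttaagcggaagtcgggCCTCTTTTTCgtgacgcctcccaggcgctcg
Rps18 (chr17:33955636-33955695, minus strand): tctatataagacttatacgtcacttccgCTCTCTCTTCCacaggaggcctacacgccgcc
Rps27 (chr3:90213619-90213678, minus strand): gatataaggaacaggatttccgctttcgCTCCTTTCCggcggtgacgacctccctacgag
Rpl26 (chr11:68901536-68901595, plus strand): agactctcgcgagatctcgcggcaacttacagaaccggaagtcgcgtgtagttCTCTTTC
Rpl37 (chr15:5116583-5116642, plus strand): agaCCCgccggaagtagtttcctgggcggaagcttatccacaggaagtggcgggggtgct

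In Rps6, Rps18 and Rps27 the run began 1 or 2 bases before the annotated start, at -1, -2 and -2. In Rpl26 it began at 23 and had 7 bases up to the end of the window, so its full length is not known. Runs cut off by the window's edge were counted only up to that edge. The longest run in the Rpl37 window had 3 bases, which says only that these letters are not in this window.

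Before the comparisons, a few facts about the libraries matter. The libraries correlated with each other at 0.920 to 0.985 and none were identical, and 14705 to 16076 rows per library reached 1 TPM. TPM keeps no depth, so the read depth behind each value is unknown. Dync2h1 had 7.07 to 10.4 scaled TPM in Dync2h1 knockout cells under flow, against 28.1 to 35.5 in wild type cells under flow, and 9.55 to 15.4 in static Dync2h1 knockout cells, against 33.7 to 45.4 in static wild type cells. Ift140 had 6.26 to 7.45 scaled TPM in static Ift140 knockout cells, against 16.5 to 19.5 in static wild type cells. Under flow it had 7.65, 8.53 and 15.4 scaled TPM in Ift140 knockout cells, against 15.1 to 18.5 in wild type cells. The library labelled Ift140 knockout flow 3 thus had Ift140 at a wild type level; it also had the most rows at 1 TPM or more, 16076, and the main family and list results of the Ift140 knockout under flow are given with and without it. Epithelial markers were present, with all 11 of a list of 11 tested, while only 3 of 15 principal cell markers of the collecting duct passed the minimum and Aqp2, which defines these cells, was at or below 0.0746 scaled TPM in every library. None of the 8 intercalated cell or 6 endothelial markers passed.

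The ribosomal protein families made up a larger share of all TPM in Dync2h1 knockout cells than in wild type cells. Under flow they held 8.51%, 8.46% and 8.63% of TPM in the Dync2h1 knockout libraries, against 6.58%, 6.96% and 6.96% in the wild type libraries. Static, they held 7.78%, 8.55% and 8.97% in the Dync2h1 knockout, against 6.50%, 6.65% and 6.88% in the wild type. The groups did not overlap in either condition. Ift140 knockout libraries held 7.32%, 7.15% and 6.63% under flow and 7.03%, 7.13% and 7.77% static. The static values lay above all wild type static libraries. Under flow only the 6.63%, of the library labelled Ift140 knockout flow 3, overlapped the wild type. The 7.32% and 7.15% lay above all wild type flow libraries. In bulk RNA fewer cells of a type and less RNA per cell cannot be told apart, and a share of TPM says nothing of the total RNA per cell. The members' own rows alone held 1.66% to 2.54%, which was 25.1% to 29.9% of the families.

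**Figure D1:**
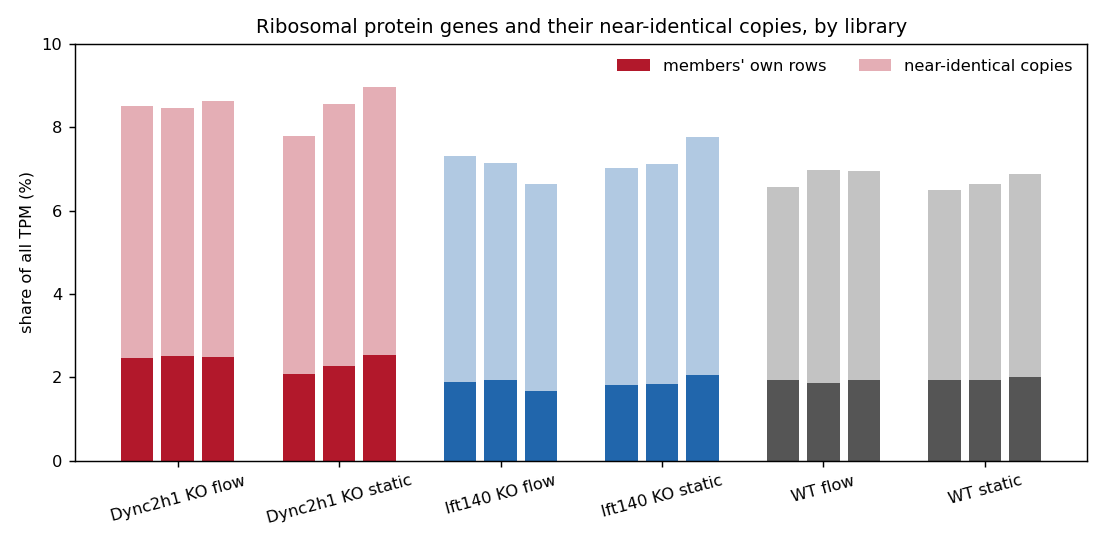
Share of all deposited TPM held by the 76 ribosomal protein genes in each of the 18 libraries; dark bars are the members' own rows, pale bars stacked on them the near-identical copies, and the x axis gives genotype and condition with 3 libraries each. The 6 Dync2h1 knockout libraries hold 7.78% to 8.97%, above all wild type libraries at 6.50% to 6.96%.

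Own rows and families also differed in how they varied. Across the 18 libraries the median correlation between pairs of members was 0.81 for families and 0.36 for own rows; pairs share libraries and scaling, so this is a description. The median spread within groups was 0.10 for families and 0.20 for own rows, as SD on the log2 scale. Among families Rplp0, the base of the ribosomal stalk that recruits elongation factors, had the highest mean at 3106 scaled TPM, followed by Rplp1 at 2009. The lowest were Rplp2 at 68.8 and Rps16 at 94.5, and these also had the widest spread within groups, 0.47 and 0.65. Rplp2 had 1 copy, at a mean of 0.03 TPM. Whether reads of these 2 genes lay in rows outside their families was not tested, so the low values need not mean scarce transcripts.

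Among own rows Rpl10 had the widest range, 2.52 on the log2 scale between its lowest and highest group mean. Rpl10 joins the large subunit late in its assembly and lies near the site where peptide bonds form. Its own row had 69.0, 53.8 and 70.6 scaled TPM in wild type cells under flow, against 22.9, 19.0 and 34.2 in static wild type cells, with no overlap and a log2 difference of 1.34 (SE 0.32, adjusted p = 0.0074, limma). The Rpl10 family had 451, 489 and 512 scaled TPM in wild type cells under flow, against 471, 474 and 460.0 static, and these overlap. The 3 rows most like the own row of Rpl10 over the 18 libraries were Ccdc50-ps, Gm17847 and Pin1rt1, with correlations of 0.95, 0.93 and 0.93.

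Most ribosomal protein families were higher in Dync2h1 knockout than in wild type cells. Under flow 62 of 76 families were called higher and 1 lower in the knockout, where 15.3% of all rows tested were called higher and 14.4% lower. Static, 56 were called higher and 1 lower, where the background was 14.2% and 13.1%. The median log2 difference over the families was 0.43 under flow and 0.39 static, beside medians over all rows tested of 0.00 and 0.01. Flow and static comparisons use different libraries, and 55 families were called higher in both, 88.7% of the higher flow calls and 98.2% of the higher static calls. On own rows 37 were called higher and 0 lower under flow (2 at an unadjusted p under 0.05; background 16.1% higher, 14% lower), and 26 higher and 3 lower static (background 13.5% and 14.1%).

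This shift depends in size on how the libraries are scaled. With quantile normalisation, 21 families were called higher and 4 lower under flow, with a median of 0.10, and 24 higher and 4 lower static, with a median of 0.17; the all-row medians were 0.02 and 0.02. On the deposited scale the counts were 54 higher and 2 lower under flow and 57 higher and 1 lower static, with medians of 0.31 and 0.36, beside all-row medians of -0.10 and -0.01.

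Rpl8, a large subunit protein close to the peptidyl transferase centre, rose most under flow. It has 1 near-identical copy, listed at a mean of 0, so its family is its own row. It had 2759, 2671 and 2559 scaled TPM in Dync2h1 knockout cells under flow, against 1212, 1205 and 1229 in wild type cells under flow. Static, it had 1896, 2130.2 and 2202 in the Dync2h1 knockout, against 1219, 1146 and 1221 in the wild type. Every knockout library was above every wild type library, and the log2 differences were 1.13 under flow and 0.79 static (SE 0.10 each, adjusted p = 5.9e-07 and 2.3e-05, limma), folds of 2.19 and 1.73.

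Rpl37, at the exit of the peptide tunnel, was second under flow and first static. Its family had 1806, 1687 and 1741 scaled TPM in Dync2h1 knockout cells under flow, against 881, 979 and 951 in wild type cells under flow. Static, it had 1438, 1527 and 1485 in the Dync2h1 knockout, against 783, 791 and 873 in the wild type. The groups were far apart in both conditions, with log2 differences of 0.90 under flow and 0.86 static (SE 0.08 each). The own row of Rpl37 held only 1.9% of the family.

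Rpl30 and Rpl26, both of the large subunit, also rose in both conditions. The Rpl30 family had 1228, 1133 and 1190.4 scaled TPM in Dync2h1 knockout cells under flow, against 660.0, 689 and 688 in the wild type under flow, a log2 difference of 0.80 (SE 0.08). Rpl26, mutated in some patients with Diamond-Blackfan anaemia, a failure of red cell formation in humans, rose by 0.66 under flow and 0.64 static (SE 0.08 each). Both separated from the wild type without overlap in both conditions.

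**Figure D2:**
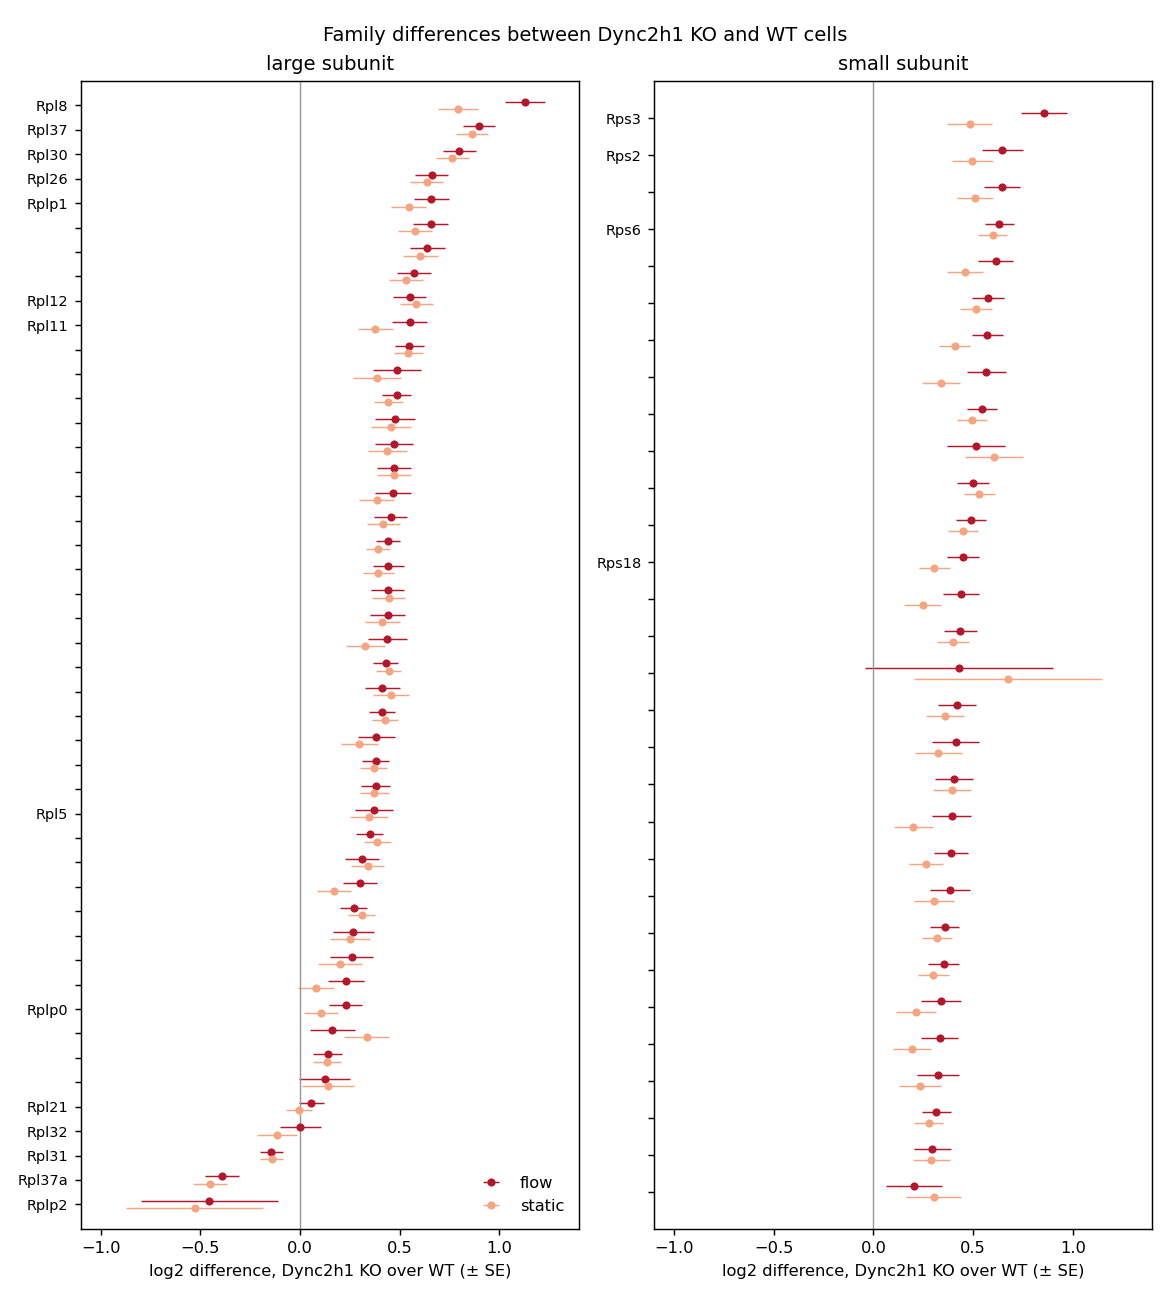
Log2 difference between Dync2h1 knockout and wild type cells for each of the 76 families, under flow (dark) and static (pale), with its standard error; large subunit on the left, small subunit on the right, with names beside some of the families described in the text. Nearly all families lie to the right of 0, led by Rpl8 at 1.13 under flow, while Rpl37a lies at -0.39 under flow and -0.45 static.

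In the small subunit 28 of 30 families were called higher under flow and 22 static, beside 62 and 56 of all 76. All 9 members of a list of proteins at the messenger RNA channel and head were called higher in both conditions. Their medians were 0.49 under flow and 0.45 static. Rps3, at the channel's entry, had 1214, 1187 and 1107 scaled TPM in Dync2h1 knockout cells under flow, against 677, 618 and 642 in wild type cells under flow, a log2 difference of 0.86 (SE 0.11). Static, Rps3 had 866, 988 and 991 in the Dync2h1 knockout, against 730.3, 620 and 685 in the wild type, a difference of 0.48 (SE 0.11). The 2 flow groups and the 2 static groups of Rps3 did not overlap. With quantile normalisation 8 of the 30 small subunit families were called higher under flow and 7 static, and of the 9 at the channel and head 2 under flow and 1 static (medians 0.14 and 0.18); Rps3 was then called under flow (0.54) but not static (0.19).

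Rps6, the protein that S6 kinase phosphorylates downstream of mTOR, had 981, 966 and 945 scaled TPM for its family in Dync2h1 knockout cells under flow, against 593, 630.0 and 644 in the wild type under flow. Static, it had 875, 909 and 882 in the Dync2h1 knockout, against 599.7, 564 and 596 in the wild type. The groups did not overlap, and the log2 differences were 0.63 under flow and 0.60 static (SE 0.07 each). Of the 31 families with a pyrimidine run near the start, 27 were called higher and 0 lower under flow (median 0.43) and 24 and 0 static (median 0.39). Of the 25 matched families without one inside the window, 20 were called higher and 1 lower under flow (median 0.44) and 17 and 1 static (median 0.39). Of those whose windows are shown above, Rps18 rose by 0.45 and 0.31 (SE 0.08 each) and Rps27 by 0.36 and 0.32 (SE 0.07 each).

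By role, Rpl5 and Rpl11, which carry 5S RNA and can bind Mdm2, rose in both conditions: Rpl11 by 0.55 under flow and 0.38 static (SE 0.09 each), and Rpl5 by 0.37 and 0.34 (SE 0.10 each). Of the 10 families around the tunnel exit 7 were called higher in each condition. Of the 4 stalk proteins Rplp1 and Rpl12 rose, with Rplp1 at 0.66 under flow and 0.55 static, while Rplp0 and Rplp2 were not called. Rplp0 had 3687, 3615 and 3528 scaled TPM in Dync2h1 knockout cells under flow, against 2954, 3110.2 and 3180.0 in wild type cells, a log2 difference of 0.23 (SE 0.08, adjusted p = 0.0504, limma). Of 19 families whose human genes are linked to Diamond-Blackfan anaemia, 17 were called higher under flow and 14 static. Of the 4 on X, 3 were called higher under flow and 2 static. Over all 76 families 62 were called higher under flow and 56 static. The counts for the tunnel exit and the Diamond-Blackfan genes lie near those shares, and the stalk and X lists hold only 4 families each. With quantile normalisation 3 of the 19 Diamond-Blackfan families were called higher and 1 lower under flow, and 4 and 1 static. Around the tunnel exit the counts were then 2 higher and 1 lower under flow and 3 and 1 static, on X 0 and 1 higher, and for the stalk still 2 and 2. Rpl11 was still called in both conditions, at 0.27 and 0.23, and Rpl5 in neither, at 0.08 and 0.17; Rps18 (0.10 and 0.03) and Rps27 (0.02 and 0.10) were also called in neither.

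With the main library scaling Rpl37a, a large subunit protein, was the only family called lower in either condition. It had 1012, 983 and 1081 scaled TPM in Dync2h1 knockout cells under flow, against 1318, 1368 and 1349 in wild type cells under flow. Static, it had 1033, 992 and 991 in the Dync2h1 knockout, against 1455, 1301 and 1376 in the wild type. The groups did not overlap, and the log2 differences were -0.39 under flow and -0.45 static (SE 0.09 each, adjusted p = 0.0028 and 0.0010, limma). Rpl21, Rpl32 and Rpl31 were not called with this scaling, with values from -0.14 to 0.06 in the 2 conditions. The Rpl31 family had 636, 633 and 655 scaled TPM in Dync2h1 knockout cells under flow, against 656, 725 and 748 in the wild type. Static, it had 605, 650 and 617 in the Dync2h1 knockout, against 695, 671 and 699. Neither pair of groups overlapped. More families were called lower with quantile normalisation, 4 in each condition, and on the deposited scale under flow, 2.

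**Figure D3:**
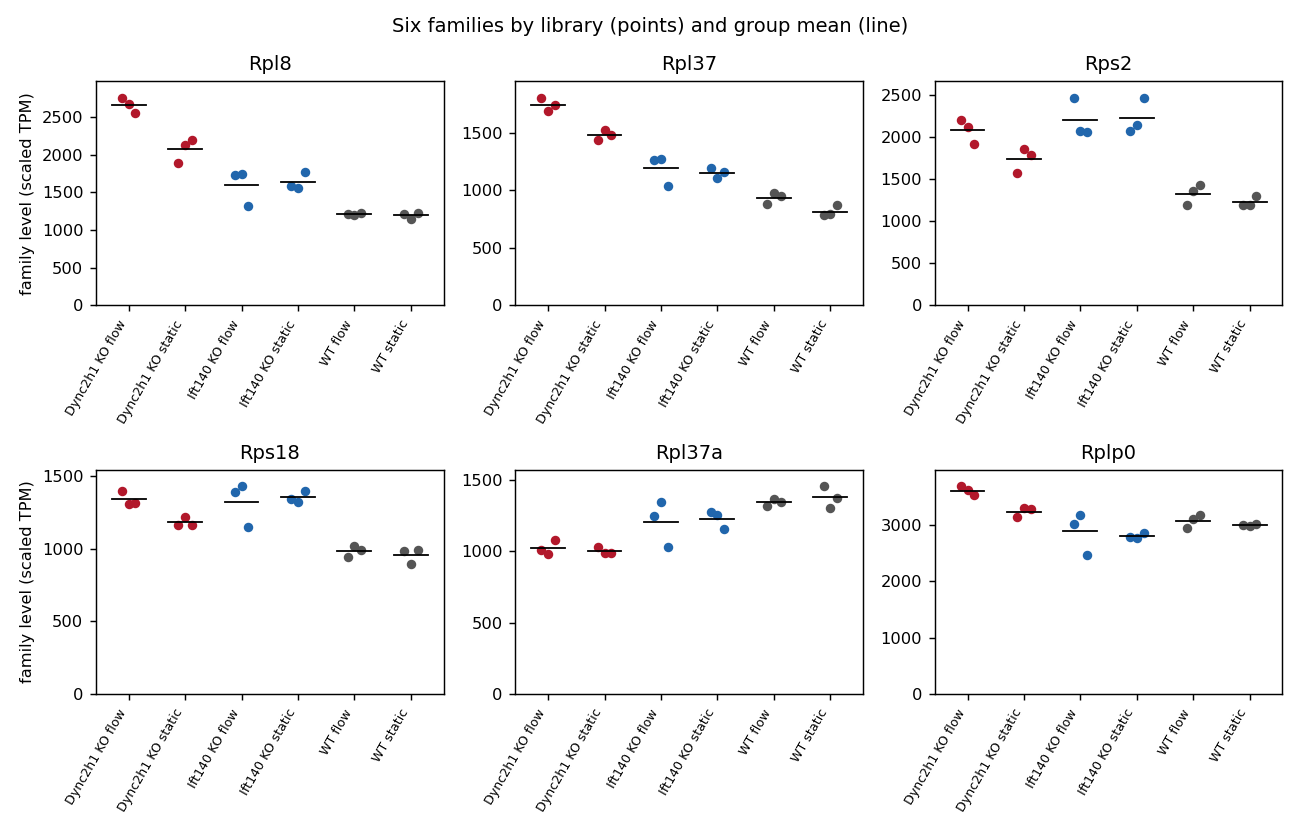
Levels of 6 families in scaled TPM, by library (points) with the group mean (line), for the Dync2h1 knockout (red), the Ift140 knockout (blue) and the wild type (grey), each under flow and static; every axis starts at 0. Rpl8 and Rpl37 are highest in the Dync2h1 knockout, Rps2 and Rps18 are higher in both knockouts than in the wild type, and Rpl37a is lowest in the Dync2h1 knockout.

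Other ribosomal genes and translation factors were also higher in part. All values in this paragraph are of own rows, with no copies summed. Over all rows 16.1% were called higher and 14% lower under flow, and 13.5% and 14.1% static. Of 4 ribosomal proteins tested that lie outside the naming rule, all 4 were called higher in the Dync2h1 knockout under flow and 3 static. Rps3a1, a small subunit protein, had 857, 815 and 741 scaled TPM in Dync2h1 knockout cells under flow, against 405, 412 and 429 in wild type cells, a log2 difference of 0.95 (SE 0.10). Of 22 translation factors and other TOP genes, 9 were called higher and 1 lower under flow, and 5 higher and 1 lower static. Among them Eif3h, a subunit of initiation factor eIF3, differed by 1.04 under flow and 0.57 static (SE 0.09 each), and Eef2, the elongation factor of translocation, by 0.58 and 0.43 (SE 0.09 each). The 1 lower gene was Vim, which encodes vimentin, the intermediate filament of mesenchymal cells, at 5.35, 5.07 and 3.82 scaled TPM in Dync2h1 knockout cells under flow, against 325, 344 and 339 in wild type cells. Of 4 ribosomal protein paralogs tested, Rpl36al rose by 0.66 under flow and 0.51 static (SE 0.08 each) and Rpl7l1 by 0.33 under flow (SE 0.11), while Rpl22l1 and Rps27l were not called.

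Other genes moved with the genotype. The 11 epithelial markers summed to 5404 to 5701 scaled TPM in Dync2h1 knockout cells under flow, against 4516 to 4852 in wild type cells under flow, and to 3985 to 4111 static, against 3043 to 3192. The 9 proximal tubule markers summed to 8.08 to 10.3 in the Dync2h1 knockout under flow, against 372 to 453 in the wild type under flow, with 3 and 4 of them at 0 in every library of the group; of the 4 tested, 0 were called higher and 2 lower under flow, Cubn by -6.37 and Lrp2 by -2.21 (SE 0.16 and 0.17), which encode the endocytic receptors cubilin and megalin. The 8 fibroblast markers summed to 0.757 to 1.25 in the Dync2h1 knockout under flow, against 4.11 to 5.38 in the wild type under flow. Mitochondrially encoded genes held 0.128% to 0.135% of TPM in Dync2h1 knockout cells under flow, against 0.193% to 0.211% in the wild type. Under flow 6 of 12 tested were called lower, beside 14% of all rows. Static, the shares overlapped, at 0.174% to 0.198% in the Dync2h1 knockout and 0.163% to 0.229% in the wild type. There 1 of 12 was called lower, beside 14.1% of all rows. Whether any of these bears on the ribosomal protein difference was not tested, and genotype and clone cannot be told apart.

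In Ift140 knockout cells the median family differed little from the wild type. The count of families called higher was only somewhat above the share over all rows, and the count called lower was below it. Static, 11 of 76 were called higher and 1 lower, beside a background of 9.3% and 8.51%; under flow 8 were called higher and 0 lower, beside 7.59% and 7.74% (2 lower at an unadjusted p under 0.05). The medians were 0.07 static and -0.03 under flow. All 8 families called under flow were also called static, 72.7% of the 11 higher static calls. Without the library labelled Ift140 knockout flow 3, 11 were called higher and 0 lower under flow, and the median was 0.09. Quantile normalisation gave 9 higher and 3 lower static, and 7 higher and 1 lower under flow. The Ift140 and Dync2h1 knockouts were set against the same wild type libraries. The 9 proximal tubule markers summed to 72.7 to 121 scaled TPM in Ift140 knockout cells under flow, against 372 to 453 in wild type cells under flow, while Lrp2, the endocytic receptor megalin, and Cubn, its partner cubilin, went opposite ways. Of the 4 tested, Lrp2 was called higher, at 63.3 to 111 scaled TPM in Ift140 knockout cells under flow, against 14.7 to 20.7 in wild type cells under flow (log2 difference 2.13, SE 0.17), and Cubn lower (log2 difference -5.95, SE 0.16). Without the library labelled flow 3, Lrp2 differed by 1.904 and Cubn by -6.05, and Aqp1, a water channel, was also called higher, by 0.69 (SE 0.19). The part of these markers in the result was not tested.

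Rps2, at the entry of the messenger RNA channel, had the largest difference among the families called. Its family had 2474, 2083 and 2070.0 scaled TPM in Ift140 knockout cells under flow, the last of them the library labelled flow 3, against 1197, 1361 and 1439 in wild type cells under flow. Static, it had 2072, 2143 and 2467 in the Ift140 knockout, against 1201, 1195 and 1301 in the wild type. All Ift140 knockout libraries were above all wild type libraries, with log2 differences of 0.73 under flow and 0.85 static (SE 0.10 each, adjusted p = 0.00018 and 3.6e-05, limma). Without the library labelled flow 3 the difference under flow was 0.77 (SE 0.11). In the Dync2h1 knockout Rps2 differed by 0.65 and 0.50.

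The others called in both conditions were 7. They included Rps10 at 0.43 under flow and 0.51 static (SE 0.09 each) and Rps18 at 0.42 and 0.50 (SE 0.08 each), both in the head of the small subunit. Rps28, near the channel's exit, differed by 0.37 and 0.50 (SE 0.09 each). In the large subunit Rpl10a, which forms the stalk at the exit of transfer RNA, differed by 0.39 and 0.40 (SE 0.06 each), Rpl8 by 0.38 and 0.45 (SE 0.10 each), Rpl37 by 0.34 and 0.50 (SE 0.08 each) and Rpl29 by 0.26 and 0.22 (SE 0.06 each). Static, Rpl36 rose by 0.52 (SE 0.11); under flow it differed by 0.31 with an adjusted p of 0.073 (limma), and the difference between conditions was not called. The Rpl36 family had 862, 773 and 603 scaled TPM in Ift140 knockout cells under flow, the last the library labelled flow 3, against 559, 635 and 598 in wild type cells under flow. Without that library Rpl36 was called higher under flow too, at 0.45 (SE 0.09, adjusted p = 0.0032, limma). The other 7 then differed under flow by 0.54 (Rps10), 0.52 (Rps18), 0.49 (Rps28), 0.45 (Rpl10a), 0.52 (Rpl8), 0.44 (Rpl37) and 0.26 (Rpl29), and all were called higher. With quantile normalisation Rpl36 was called higher under flow (0.30), while Rpl8 (0.39) and Rpl29 (0.23) were not called under flow and Rpl29 (0.20) was not called static.

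The own rows of the Ift140 knockout gave another picture. Static, 12 were called higher and 15 lower, beside a background of 8.97% and 9.08%, and under flow 5 higher and 3 lower, beside 7.73% and 7.52%. These counts changed when 1 library was left out. The static count of 27 was 10, 13 and 17 without wild type static 1, 2 and 3 in turn. It was 14 without Ift140 knockout static 3. The 8 calls under flow became 5 without wild type flow 1 or 2, and 23 without Ift140 knockout flow 2; without Ift140 knockout flow 3 they were 7 higher and 1 lower. Rpl11 had 26.6, 31.9 and 28.5 scaled TPM on its own row in static Ift140 knockout cells, against 91.3, 85.5 and 73.4 in static wild type cells, a log2 difference of -1.49 (SE 0.33). Its family had 526, 515 and 522 in static Ift140 knockout cells, against 530.4, 523 and 552 in the wild type, which overlap. The own row of Rpl30 fell, with 49.2, 53.5 and 37.7 scaled TPM in static Ift140 knockout cells, against 70.2, 69.4 and 75.6 in the wild type (log2 difference -0.62, SE 0.18), while its family rose, with 802, 799.5 and 784 in static Ift140 knockout cells, against 626, 637 and 683 in the wild type (log2 difference 0.29, SE 0.08). In static Dync2h1 knockout cells the signs of Rpl11 also differed, at -1.07 (SE 0.33) on its own row and 0.38 (SE 0.09) for its family. Of the called own rows, 7 of 27 in the static Ift140 knockout and 27 of 29 in the static Dync2h1 knockout had families called in the same direction.

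**Figure D4:**
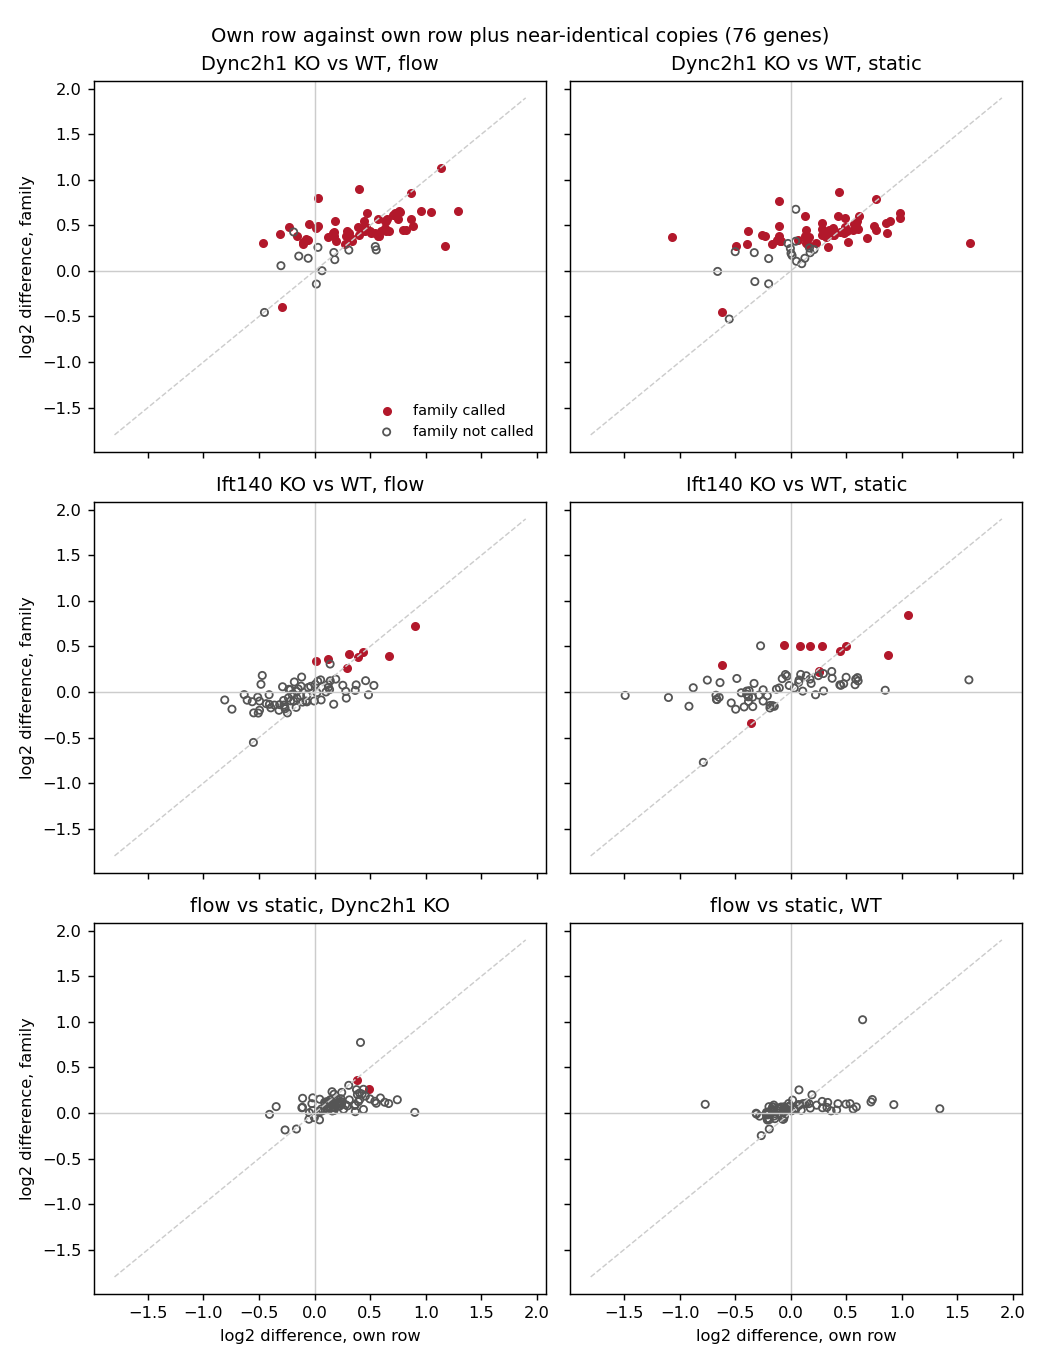
Log2 difference of each member's own row (x axis) against that of its family (y axis) in 6 comparisons; filled points are families called at an adjusted p under 0.05, and the dashed line marks equal values. Own rows spread from -1.49 to 1.62 in the static knockout comparisons while families lie in a narrower band, above 0 for nearly all members in the Dync2h1 knockout.

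Few ribosomal protein families were called between flow and static. Of 76 families, 0 were called in wild type cells (2 higher and 0 lower at an unadjusted p under 0.05, limma) beside a background of 10.9% higher and 9.76% lower, and 0 in Ift140 knockout cells (0 at an unadjusted p under 0.05) beside 9.33% and 8.41%. In Dync2h1 knockout cells 2 were called higher and 0 lower, beside 10.1% and 8.82% (12 higher and 0 lower at an unadjusted p under 0.05). The medians were 0.10 in the Dync2h1 knockout, -0.02 in the Ift140 knockout and 0.05 in the wild type, and 0.07 in the Ift140 knockout without the library labelled flow 3, where 2 were called higher. The median standard error of a family's difference was 0.087 on the log2 scale.

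The 2 families called were Rpl8, at 0.36 (SE 0.10, adjusted p = 0.018), and Rpl11, at 0.27 (SE 0.09, adjusted p = 0.045, limma). Rpl8 had 2759, 2671 and 2559 scaled TPM in Dync2h1 knockout cells under flow, against 1896, 2130.2 and 2202 static, with no overlap. Rpl11 had 865, 818 and 829 under flow, against 682, 707 and 698 static, again with no overlap. On the deposited scale 0 families were called higher and 1 lower, with a median of -5e-04. With 1 library left out, 0 were called without Dync2h1 knockout static 1, flow 1 or flow 2, and 1 without static 2, static 3 or flow 3. The differences between the knockout and wild type responses to flow gave 0 calls for families and for own rows in both knockouts (families: 2 higher and 0 lower for the Dync2h1 knockout and 0 for the Ift140 knockout at an unadjusted p under 0.05; own rows: 15 higher and 1 lower, and 1 higher and 4 lower, limma), beside backgrounds for families of 0.151% higher and 0.37% lower for the Dync2h1 knockout and 0.0727% and 0.151% for the Ift140 knockout, and for own rows of 0.179% and 0.305%, and 0.0778% and 0.15%.

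On own rows flow gave more calls than on families, all of them higher. Of 76 own rows, 11 were called in Dync2h1 knockout cells, 3 in Ift140 knockout cells and 8 in wild type cells. The backgrounds were 10.8% higher and 8.15% lower, 9.21% and 8.27%, and 10.2% and 10.3% (lower at an unadjusted p under 0.05, limma: 1, 1 and 2). The higher counts were thus near the share over all rows in the wild type, somewhat above it in the Dync2h1 knockout and below it in the Ift140 knockout. These counts too changed when 1 library was left out. The 11 became 4 without Dync2h1 knockout flow 1, 5 without static 1 and 7 without flow 2. The 3 became 5 or 6 without Ift140 knockout flow 1, flow 2 or static 3. The 8 became 4 without wild type static 2. Rpl10a and Rpl27 were called in all 3 genotypes. The own row of Rpl10a had 81.5, 78.7 and 69.7 scaled TPM in Dync2h1 knockout cells under flow, against 51.0, 55.2 and 49.1 static; 109, 113 and 102 in Ift140 knockout cells under flow, against 72.8, 81.0 and 71.1 static; and 62.2, 71.1 and 69.3 in wild type cells under flow, against 38.2, 43.7 and 39.7 static. Flow and static libraries did not overlap in any genotype, and the log2 differences were 0.56, 0.52 and 0.72 (SE 0.08 each). Without the library labelled Ift140 knockout flow 3, Rpl10a differed by 0.56 in the Ift140 knockout and stayed called. The Rpl10a family, of which this row holds 16.1%, was called in none of the genotypes, with log2 differences of 0.11, 0.11 and 0.12. It had 512, 487 and 499 scaled TPM in Dync2h1 knockout cells under flow, against 451, 485 and 454 static, with no overlap. It had 501, 508 and 449.7 in Ift140 knockout cells under flow, against 448, 460.1 and 440.3 static, and 345, 384 and 382 in wild type cells under flow, against 331, 342 and 347 static, and both of these pairs overlap.

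Many genes that build ribosomes rose under flow; whether their response differed from that of the ribosomal protein families was not tested. Of 55 ribosome biogenesis genes tested, 32 were called higher in Dync2h1 knockout cells, 28 in Ift140 knockout cells and 32 in wild type cells, with 0 lower in each, and medians of 0.44, 0.40 and 0.38, beside own-row backgrounds of 10.8%, 9.21% and 10.2% called higher. Tsr1, needed for maturation of the small subunit, had 173, 175 and 176 scaled TPM in Dync2h1 knockout cells under flow, against 90.4, 75.7 and 92.7 static, a log2 difference of 1.01 (SE 0.09). In wild type cells Tsr1 had 130.2, 130.2 and 129 under flow, against 47.7, 62.3 and 58.5 static. No flow library overlapped a static one. Myc, a transcription factor that activates ribosome biogenesis genes, rose by 1.51 in the Dync2h1 knockout, 1.88 in the Ift140 knockout and 1.76 in the wild type (SE 0.23 each). The 12 genes of a MYC network list went both ways under flow. In the Dync2h1 knockout 3 were called higher and 2 lower, in the Ift140 knockout 1 and 3, and in the wild type 2 and 3. Their medians were 0.04, -0.02 and 0.08. Of 27 genes of the mTOR and TOP pathway, 3 were called higher and 2 lower under flow in the Dync2h1 knockout, 4 and 4 in the Ift140 knockout and 3 and 4 in the wild type. Their medians were -0.02, 0.06 and -0.09, and these small counts stand beside the own-row backgrounds given above, 10.8% and 8.15%, 9.21% and 8.27%, and 10.2% and 10.3%. Sesn1, an inhibitor of mTOR complex 1 signalling, fell in all 3, with log2 differences of -1.19 in the Dync2h1 knockout, -1.203 in the Ift140 knockout and -1.17 in the wild type (SE 0.09 each). Sesn2, of the same family and the same list, rose in all 3, by 0.93 in the Dync2h1 knockout, 1.66 in the Ift140 knockout and 1.30 in the wild type (SE 0.17 each). Without the library labelled Ift140 knockout flow 3, the Ift140 knockout gave 36 biogenesis genes called higher and 0 lower (median 0.43), 5 mTOR and TOP genes higher and 5 lower, and log2 differences of 1.53 for Myc, -1.15 for Sesn1 and 1.49 for Sesn2.

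**Figure D5:**
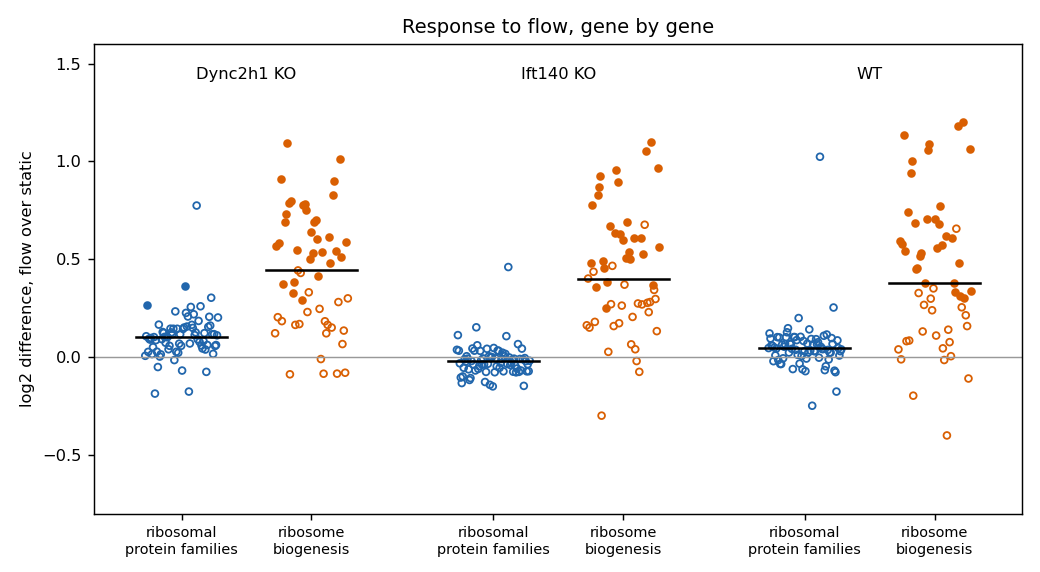
Log2 difference between flow and static for the 76 ribosomal protein families (blue) and the 55 ribosome biogenesis genes tested (orange) in each genotype; filled points were called at an adjusted p under 0.05 and black lines are medians. The families' medians lie at 0.10, -0.02 and 0.05, those of the biogenesis genes at 0.44, 0.40 and 0.38.

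Between knockout and wild type the biogenesis list was also called higher more often than lower. In the Dync2h1 knockout 23 of 55 were called higher and 2 lower under flow, beside 16.1% and 14% of all rows, and 22 higher and 2 lower static, beside 13.5% and 14.1%. In the Ift140 knockout 10 were called higher and 0 lower under flow, beside 7.73% and 7.52%, and 14 higher and 0 lower static, beside 8.97% and 9.08%; without the library labelled flow 3, 13 were called higher and 0 lower under flow. Nop56, a core protein of the particles that methylate ribosomal RNA, had 261, 242 and 246 scaled TPM in Dync2h1 knockout cells under flow, against 145, 156 and 153 in the wild type under flow, a log2 difference of 0.72 (SE 0.06). Of 6 genes of the ribosomal protein and p53 checkpoint tested, 1 was called higher and 0 lower in the Dync2h1 knockout under flow, 1 higher and 1 lower static, and 0 in either condition in the Ift140 knockout. The higher one was Mdm2, and the lower one Mdm4, which inhibits p53, at -0.84 (SE 0.20). Between flow and static 2 were called higher in the Dync2h1 knockout, Mdm2 and Cdkn2a, which encodes the Mdm2 inhibitor ARF, at 0.26 (SE 0.08), and only Mdm2 in the Ift140 knockout and the wild type, with 0 lower in each. Mdm2, the p53 ubiquitin ligase bound by Rpl5 and Rpl11, was higher in the Dync2h1 knockout by 0.35 under flow and 0.45 static (SE 0.09 each), and higher under flow in all 3 genotypes by 0.46 in the Dync2h1 knockout, 0.50 in the Ift140 knockout and 0.56 in the wild type (SE 0.09 each).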

How the data were processed

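RNA was sequenced from 18 IMCD3 libraries, 3 in each of 6 groups. The authors deposited TPM per gene, an other-than-count value with a total row that was dropped here; per the submitters' processing notes the tools were FastQC 0.11.5, Bowtie2 2.1.0 and RSEM 1.2.31 and the builds mm10 and GRCm38.p5. Rows with at least 1 TPM in 3 libraries were kept, scaled by a trimmed mean of log ratios (30% ratio and 5% abundance trim) and tested as log2(scaled TPM + 1) with limma 3.58.1 in R 4.3.3 (6 group means, 12 residual degrees of freedom, Benjamini-Hochberg over all rows, threshold 0.05). Folds are on that scale. Scaling was first computed on all rows; the rows that passed the filter were then used, with the members' counts in view, because this matched an earlier processing of the same files. Families summed each member with rows found by BLASTN 2.17.0 against GENCODE vM21 (95% identity, 100 bases, 50% of the copy's length), leaving 16502 rows. The members and all gene lists were chosen with earlier results of these data known; families, their limits and the start-site search were chosen after seeing the values, and the limits were not varied. Members named were, per comparison and direction, up to 4 with the largest called difference and no overlap, the 5 highest, 5 lowest and 5 most variable by level, and Rps6 and Rplp0; listed genes were up to 3 per comparison by p. The rule was written for own rows and extended to families after seeing the data. Rpl5, Rpl29, Rpl31, Rpl32, Rplp2, Rps16, Rps27, Rps28 and Eef2 were chosen after their values were seen. The fit was checked on simulated data. No replicate block was used. Some genes that the rule names are not reported here.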

Additional observations from a re-analysis of the deposited data

How the results depend on the processing

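Counts of called members or families below are those of either direction. Every result was recomputed with other scalings, pseudocounts and filters, a fit of only the groups compared, a replicate block, and each library left out; scaling on all rows, scaling relative to the sum of kept rows (same counts) and the families were added after seeing the data. The Dync2h1 knockout families stayed higher than the wild type in the median under every setting run, but quantile normalisation lowered the calls to 25 under flow and 28 static and the medians to 0.10 and 0.17, and the deposited scale lowered the flow median to 0.31 (own rows 0.26, quantile 0.23). Summing copies changed own-row calls to 63 and 57 for the Dync2h1 knockout under flow and static (static median 0.39), 12 for the static Ift140 knockout (median 0.0722; 0.0251 with named pseudogenes only), and 2, 0 and 0 for flow in the Dync2h1 knockout, Ift140 knockout and wild type; the response difference of the Dync2h1 knockout then had a median of 0.0419 (own rows on the deposited scale 0.0591). With copies summed, Rpl11 in the static Dync2h1 knockout turned to 0.38, Rpl30 and Rpl7a in the static Ift140 knockout to 0.29 and 0.0464, and Rpl35 under flow in the Ift140 knockout to -0.0066. With named pseudogenes summed, 5 own rows were called under flow in the Dync2h1 knockout and 5 in the wild type. For flow in the Dync2h1 knockout, own-row calls were 4 on the deposited scale (median 0.0767), 5 with quantile normalisation (median 0.0739), 5 without a minimum TPM and 19 with only the groups compared; family calls were 1 on the deposited scale (median -5e-04), 1 with quantile normalisation (median -0.0575), 1 with scaling on all rows, 0 without a minimum, 7 with only the groups compared and 1 with the replicate block. The family response difference of the Dync2h1 knockout had medians of -0.052 on the deposited scale and -0.0601 with quantile normalisation, and on own rows 2 were called with only the groups compared. Quantile normalisation gave 1 family call under flow in the wild type and 5 own-row calls under flow in the Ift140 knockout. With only the groups compared, own-row calls under flow were 15 in the wild type and 1 in the Ift140 knockout, and for the Ift140 knockout against the wild type under flow 3 own rows and 1 family were called. Without a minimum TPM the Ift140 knockout had 9 own-row and 7 family calls static, and 4 and 4 under flow. The members' share of TPM, 2.07% on average, was 4.27% with named pseudogenes and 7.47% with all copies. The causes of these changes were not tested. With 1 library left out, own-row calls ranged over 4 to 12 (flow, Dync2h1 knockout), 2 to 6 (flow, Ift140 knockout), 4 to 7 (flow, wild type), 10 to 26 (Ift140 knockout static) and 5 to 23 (Ift140 knockout under flow), and family calls over 0 to 1 (flow, Dync2h1 knockout), 0 to 2 (flow, Ift140 knockout), 48 to 53 (Dync2h1 knockout static) and 58 to 62 (under flow). Own-row medians ranged from -0.11 to 0.13 (flow, Ift140 knockout) and from -0.24 to 0.026 (Ift140 knockout under flow), and family medians from -0.10 to 0.0744 (flow, Ift140 knockout), from -0.10 to 0.0888 (Ift140 knockout under flow), and from -0.14 to 0.0296 for the response difference of the Ift140 knockout; leaving out Ift140 knockout flow 3 gave the upper end of each. Replicate numbers did not pair the libraries: correlations between same-numbered libraries were -0.18 to 0.10. The block changed no other count of calls by over 1.5 times. Among members named, 170 of the own-row and 92 of the family alternatives lost the call and 1140 and 1108 kept it. TPM gives no depth, so no interval for counting error was possible.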
